A study of Mus musculus with 31 samples.

Results

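The receptors described here are the 10 genes that encode the main receptor chains through which a cell senses cytokines and danger signals from macrophages: *Ifngr1*, *Ifngr2*, *Tnfrsf1a*, *Tnfrsf1b*, *Il1r1*, *Il6st*, *Il17ra*, *Osmr*, *Lifr* and *Tlr4*. They were chosen by symbol, and all 10 were found once in each of the 3 count tables, among 55487, 56980 and 56941 genes. All 10 had enough counts to be tested in every table. RNA sequencing was done on 31 samples of cultured murine pancreatic cancer cells. The study's line is Panc02, a pancreatic adenocarcinoma line, and the labels of the conditioned media and 2D/3D samples name it. Those of the 10 rescue samples give a different number after the same stem in each sample, and these were treated as Panc02 here. The study asked how a pancreatic cancer cell responds to macrophages, to 3-dimensional growth and to the loss of the chemokine gene *Cxcl5*.

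In the conditioned media table, Panc02 spheroids in Matrigel were kept in serum-matched control medium (Ctrl), in medium conditioned by unstimulated bone marrow-derived macrophages of mice (M0-CM), or in medium conditioned by such macrophages after IFNγ and LPS (M1-CM), with 3 samples each. Both conditioned media were mixed with fresh medium and carried L929 cell supernatant, which was used to grow the macrophages. In the 2D/3D table, WT cells and *Cxcl5*-/- cells were grown in 2D or as spheroids in 3D, with 3 samples in each of the 4 groups. In the rescue table, 3D-cultured WT and *Cxcl5*-/- cells gave 2 samples each, and *Cxcl5*-/- cells that carried a retroviral vector for a stabilised Hif1α (*Hif1a*OE *Cxcl5*-/-) or for Myc (*Myc*OE *Cxcl5*-/-) gave 3 samples each. The *Cxcl5*-/- cells were made with lentiCRISPRv2 and selected with puromycin, and the sources used here do not say whether they are a clone or a pool. The labels do not say that samples of a group came from separate cultures, so p-values measure the spread between these samples, which may be technical.

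The total count per sample was between 43875429 and 78498230 with the conditioned media, between 46973008 and 72361685 in the 2D/3D table, and between 41542533 and 64872036 in the rescue table, and the lowest count of any receptor in any sample was 278. Levels are given as CPM, counts per 1000000 counts of the TMM-scaled library, and between genes as CPM per kb of exon. A gene was called higher or lower at an adjusted p under 0.05 in edgeR's quasi-likelihood test, with Benjamini-Hochberg adjustment over all genes of the table. In the libraries labelled as 3D *Cxcl5*-/-, *Cxcl5* RNA was higher than in 3D WT (50.6 ± 13.1 against 27.0 ± 2.17 CPM, SD, n = 3, log2 fold change 0.91). A loss of RNA was thus not seen there, but counts do not show an edited sequence, so RNA cannot settle the label. The study checked the knockout on protein, by immunoblot for CXCL5, also in 3D-cultured cells. That blot is not a check of these libraries themselves. In 2D it was at 34.3 ± 2.70 CPM in *Cxcl5*-/- and 47.3 ± 1.78 CPM in WT cells (log2 fold change -0.47, not called), and it was lower in the *Cxcl5*-/- samples of the rescue table (log2 fold change -0.78). *Hif1a* and *Myc* RNA were higher in the cells that carried each vector than in *Cxcl5*-/- cells, by 0.94 and 4.54 on the log2 scale. *Hif1a* RNA was also higher with the Myc vector, by 0.90, and was not called between *Myc*OE and *Hif1a*OE cells (-0.04). It therefore does not single out the samples with the Hif1α vector. Of the tissue markers, *Epcam* and *Cdh1* stayed under 1 CPM in every group while *Krt8* and *Krt18* were expressed, the fibroblast genes *Col3a1* and *Pdgfrb* were expressed in every group, and of 10 macrophage and leukocyte genes *Cd68* was at 1.27 to 9.75 CPM on average in every group and *Lyz2* reached 13.6 CPM, while *Adgre1*, *Itgam* and *Tyrobp* stayed under 1 CPM. The 2 WT libraries of the rescue table stood apart, with 34172 and 34185 genes at 5 or more counts against 22802 to 25371 in the other 8, and every result against them rests on both.

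Cytokine receptors work as pairs or trimers of chains. *Il6st* encodes gp130, the signalling chain shared by the IL-6 family, which pairs with the products of *Osmr* for oncostatin M and of *Lifr* for leukaemia inhibitory factor and passes the signal to JAK kinases and STAT3. *Ifngr1* binds interferon-γ and *Ifngr2* completes its receptor. *Tnfrsf1a* and *Tnfrsf1b* encode the death domain receptor and the TRAF-binding receptor for TNF, *Il1r1* the signalling receptor for interleukin-1, *Il17ra* the common chain for interleukin-17 cytokines, and *Tlr4* the sensor of LPS.

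The levels in WT cells give the starting point for the comparisons. In 2D WT, *Tnfrsf1b* and *Il6st* had the highest levels per length, at 20.6 ± 1.61 and 17.5 ± 0.41 CPM per kb (SD, n = 3). *Tnfrsf1a* followed at 14.2, *Ifngr1* at 12.04, *Ifngr2* at 9.73 and *Tlr4* at 8.57 CPM per kb, and *Il1r1* at 5.06. *Il17ra* at 3.17, *Lifr* at 2.51 and *Osmr* at 1.62 CPM per kb were the lowest, and no neighbours in this order overlapped between samples. With lengths taken from the longest transcript, *Il6st* stood first and *Osmr* eighth, ahead of *Il17ra* and *Lifr*. In 3D WT the order opened with *Il6st* (27.8 ± 1.47 CPM per kb), *Tnfrsf1b* (17.5 ± 0.30) and *Ifngr1* (15.8 ± 1.45), and *Osmr* had passed *Il1r1*, with 7.73 ± 0.78 against 6.50 ± 0.47 CPM per kb. *Ifngr1* and *Tnfrsf1a* were neighbours there whose samples overlapped. In Ctrl spheroids *Il6st* was again first (23.8 ± 3.70 CPM per kb) and *Il17ra* and *Lifr* were last, at 2.11 ± 0.23 and 2.00 ± 0.73, values that overlapped. By level per length, *Il6st* stood at percentile 85.7 of the genes tested in 2D WT and *Osmr* at percentile 47.8.

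**Figure D1:**
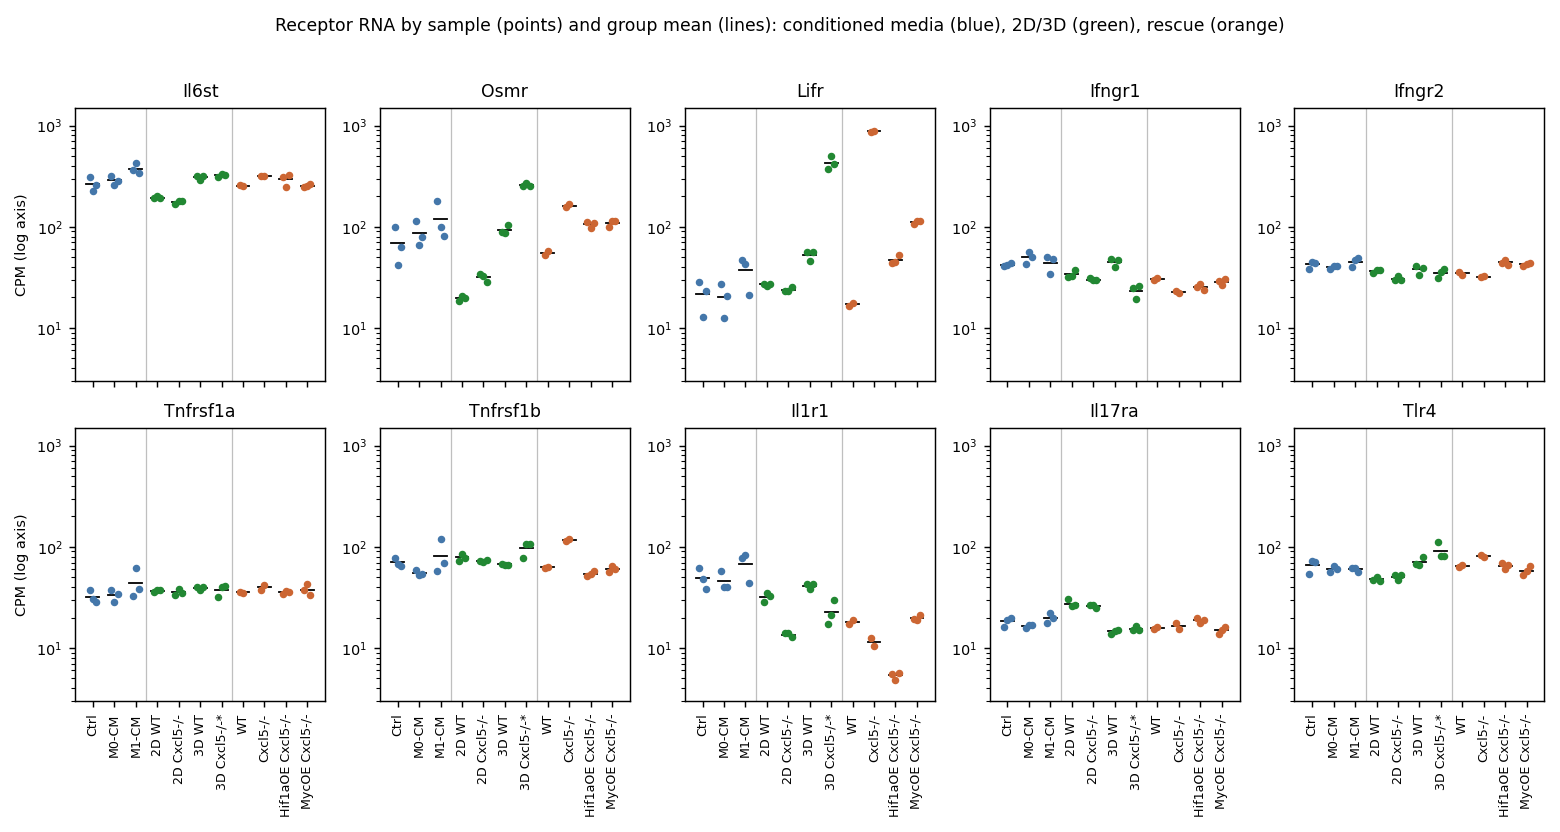
RNA level of each receptor in CPM (log axis) in every sample (points) with group means (lines), for the conditioned media (blue), 2D/3D (green) and rescue (orange) tables; the asterisk marks the libraries labelled as 3D Cxcl5-/-. Lifr spans the widest range, from a mean of 17.1 CPM in the WT to 876.7 CPM in the Cxcl5-/- samples of the rescue table, while Tnfrsf1a stays between means of 32.0 and 44.1 CPM.

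*Osmr* and *Lifr*, the members with the widest spread, lie next to each other among the members on chromosome 15. *Osmr* (ENSMUSG00000022146) occupies 6813577 to 6874969 on the minus strand of GRCm38 and *Lifr* (ENSMUSG00000054263) 7090614 to 7197489 on the plus strand, 215644 bases apart. The 250 bases before the transcription start of both genes, and of *Tnfrsf1b*, which was called with them in several comparisons below, are shown 5′ to 3′ from RefSeq (GRCm38.p6). Counts per gene do not show which start was used. The *Osmr* and *Lifr* starts of RefSeq, and with them the windows shown, lie inside the genes as GENCODE M21 draws them, and a further *Lifr* start is listed and not shown.
Osmr, chr15:6874314-6874563, minus strand: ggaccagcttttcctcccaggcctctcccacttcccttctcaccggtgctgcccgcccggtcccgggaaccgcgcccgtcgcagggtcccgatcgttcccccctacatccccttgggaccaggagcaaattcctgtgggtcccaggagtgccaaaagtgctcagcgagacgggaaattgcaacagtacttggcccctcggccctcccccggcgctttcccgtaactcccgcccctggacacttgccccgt
Lifr, chr15:7129322-7129571, plus strand: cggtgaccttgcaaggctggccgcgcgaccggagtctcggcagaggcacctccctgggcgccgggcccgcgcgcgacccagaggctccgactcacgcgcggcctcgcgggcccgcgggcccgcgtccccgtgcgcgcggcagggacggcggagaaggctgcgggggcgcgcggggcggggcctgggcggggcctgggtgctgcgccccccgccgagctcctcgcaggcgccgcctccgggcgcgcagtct
Tnfrsf1b, chr4:145246871-145247120, minus strand: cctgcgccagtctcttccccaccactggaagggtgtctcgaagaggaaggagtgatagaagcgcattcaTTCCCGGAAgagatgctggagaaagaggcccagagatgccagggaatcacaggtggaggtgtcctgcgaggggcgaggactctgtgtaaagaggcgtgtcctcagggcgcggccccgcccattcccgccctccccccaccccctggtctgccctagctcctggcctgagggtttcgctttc

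The capitals mark a match to TTCNNNGAA, the letters of a STAT site. The other letters searched on both strands were ACGTG, the core of a hypoxia response element, and CACGTG, the E-box that Myc and Max bind, which contains ACGTG. RefSeq's table gave 10 windows for 8 of the receptors and none for *Il17ra* and *Tlr4*. TTCNNNGAA was in 2 of the 10 windows, those of *Tnfrsf1b* and *Tnfrsf1a*, ACGTG in 1, of *Il1r1*, and CACGTG in 0, against 7.02%, 16.6% and 6.02% of 32851 promoter windows of the same length. The *Osmr* and *Lifr* windows held none of the 3 and had a GC content of 66% and 82.4%.

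To ask whether macrophage medium changed the receptors, M1-CM was compared with Ctrl and with M0-CM. No receptor was called in any of these comparisons, where 3 of 19207 genes were called for M1-CM against Ctrl (0.0156%), 3 against M0-CM (0.0156%) and 0 (0%) for M0-CM against Ctrl by edgeR. For M0-CM against Ctrl, 412 genes were higher and 157 lower at an unadjusted p under 0.05, and DESeq2 called 14 higher and 3 lower. DESeq2's Wald test also called 0 of the 10 receptors in each, and at an unadjusted p under 0.05 there were 1, 3 and 0 receptors. At that limit edgeR gave 586 higher and 317 lower of all 19207 genes for M1-CM against Ctrl. Against M0-CM it gave 309 and 189. In counts simulated for M1-CM against Ctrl, edgeR recovered 35% of genes changed 2-fold, so that a receptor without a call may still have changed. *Il6st* was at 307.9, 226.2 and 259.3 CPM in Ctrl, 317.5, 259.7 and 286.1 CPM in M0-CM, and 361.6, 430.2 and 338.5 CPM in M1-CM. The 3 M1-CM samples lay above all Ctrl and M0-CM samples, with a log2 fold change of 0.51 against Ctrl (SE 0.16, unadjusted p = 0.0116, adjusted p = 0.965 by edgeR). In bulk RNA such as this, fewer cells with a receptor and less RNA per cell cannot be told apart.

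*Osmr* was at 100.1, 42.0 and 63.3 CPM in Ctrl, 115.4, 66.8 and 78.7 CPM in M0-CM, and 178.7, 99.9 and 81.0 CPM in M1-CM. The samples overlapped, and the sample numbered 1 was the highest in each of the 3 groups. *Lifr* was at 28.4, 13.0 and 23.2 CPM in Ctrl and at 47.4, 43.0 and 21.3 CPM in M1-CM, where 1 of 3 samples lay within the Ctrl range. The log2 fold changes against Ctrl were 0.81 for *Osmr* (SE 0.37, 95% interval 0.08 to 1.54) and 0.79 for *Lifr* (SE 0.39, 0.03 to 1.55), with an adjusted p of 0.965 by edgeR for each. With each sample left out in turn they ranged from 0.40 to 1.19 and from 0.54 to 1.07. The IFNγ receptor chains had intervals closer to 0, from -0.28 to 0.41 for *Ifngr1* and from -0.17 to 0.36 for *Ifngr2*. Against M0-CM the log2 fold changes were 0.46 for *Osmr* and 0.89 for *Lifr*, with an adjusted p of 0.989 by edgeR for each. *Tlr4* was at 65.5 ± 9.89 CPM in Ctrl, at 60.3 ± 3.60 CPM in M0-CM and at 60.0 ± 3.56 CPM in M1-CM (SD, n = 3). The M1-CM sample numbered 2 was the highest of all 9 for *Tnfrsf1a* (62.0 CPM), *Tnfrsf1b* (119.5 CPM) and *Il1r1* (83.1 CPM), whose mean log2 fold changes against Ctrl of 0.46, 0.22 and 0.46 were not called. The acute phase gene *Lcn2* was the 1 called gene among 14 tested targets of these receptors, with 48.2 CPM in M1-CM and 0.0466 CPM in Ctrl on average. Macrophage marker RNA summed to between 5.38 and 8.23 CPM in M1-CM and between 7.82 and 15.3 CPM in Ctrl, with *Adgre1*, *Itgam* and *Tyrobp* at 0 in both. Fibroblast markers summed to between 1540.8 and 1953.4 CPM in M1-CM and between 1569.1 and 1952.8 CPM in Ctrl.

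**Figure D2:**
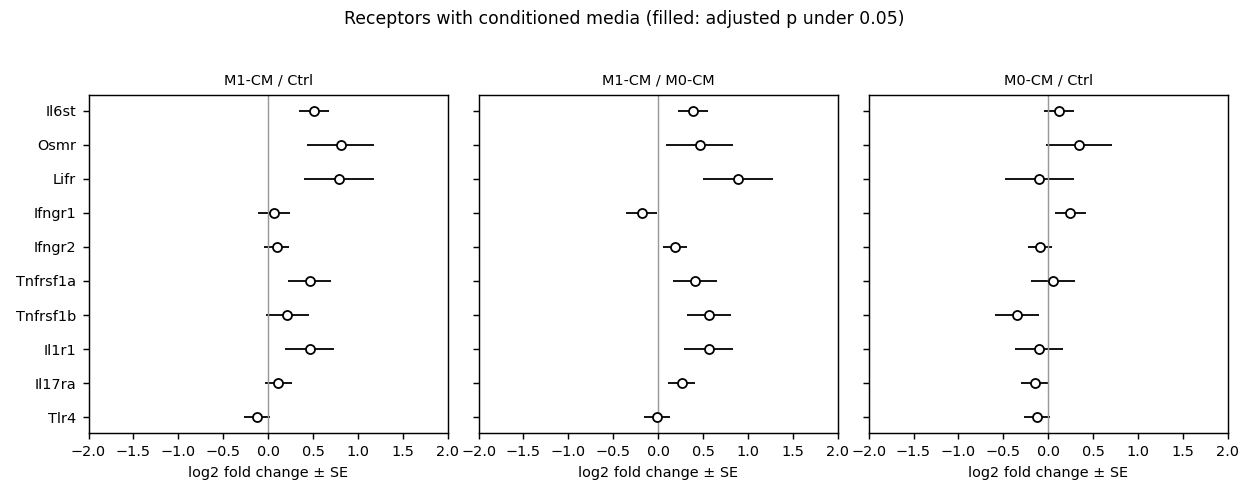
Log2 fold change (points, x axis) with its SE (bars) of each receptor for M1-CM against Ctrl, M1-CM against M0-CM and M0-CM against Ctrl; filled points would mark an adjusted p under 0.05 and there are none. Osmr, Lifr and Il6st lie furthest right for M1-CM against Ctrl, at 0.81, 0.79 and 0.51, with the widest bars for Osmr and Lifr.

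Growth in 3D was compared with growth in 2D in WT cells, where 22.2% of 21367 genes were called higher and 22% lower. Of the 10 receptors 5 rose (*Osmr*, *Lifr*, *Il6st*, *Tlr4* and *Ifngr1*) and 1 fell (*Il17ra*), with a median log2 fold change of 0.38 against 0.00 over all genes. *Osmr* was at 18.6, 20.7 and 19.7 CPM in 2D WT and at 88.6, 87.7 and 104.5 CPM in 3D WT, a 4.76-fold rise (log2 fold change 2.25 with an SE of 0.10, edgeR adjusted p = 1.26e-09). *Lifr* rose from 27.4, 26.2 and 27.4 CPM to 56.1, 45.5 and 56.7 CPM (log2 fold change 0.97 with an SE of 0.11, edgeR adjusted p = 9.86e-06). Their shared partner *Il6st* went from 192.1, 199.5 and 191.3 CPM to 314.9, 290.0 and 320.7 CPM (0.67, SE 0.07, adjusted p = 6.79e-06 by edgeR). The 2D and 3D samples of these 3 genes did not overlap, a description for which the share of all genes without overlap is not given. *Tlr4* rose from 47.6 ± 2.52 to 71.4 ± 6.89 CPM (log2 fold change 0.58) and *Ifngr1* from 34.3 ± 3.04 to 45.1 ± 4.12 CPM (0.40).

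*Il17ra* was the 1 receptor that fell in 3D, from 30.2, 25.8 and 26.4 CPM to 13.8, 14.8 and 15.1 CPM, 1.89-fold lower (log2 fold change -0.91 with an SE of 0.09, edgeR adjusted p = 2.46e-06). Every 3D sample lay under every 2D sample. The TNF receptors gave 0.10 for *Tnfrsf1a* (95% interval -0.09 to 0.29) and -0.23 for *Tnfrsf1b* (-0.45 to -0.02), *Ifngr2* gave 0.05 and *Il1r1* 0.36, none of them called. Scaling by library totals shifted the all-gene median from 0.00 to -0.21 here and the share of called genes that were higher from 50.2% to 34.7%, and with it *Ifngr1* was no longer called (0.18) and *Tnfrsf1b* was called lower (-0.45). Marker RNA of other cell types moved with the culture too, and not as whole lists. The 7 fibroblast markers summed to between 794.6 and 844.1 CPM in 2D WT and between 636.2 and 690.0 CPM in 3D WT, where *Col3a1* (log2 fold change -0.38) and *Pdgfrb* (-0.78) were called lower and *Dcn* (6.65), *Lum* (6.49) and *Col1a1* (3.04) higher. The 7 epithelial markers summed to between 546.5 and 592.7 CPM and between 852.5 and 1096.9 CPM, with 4 called higher and *Krt7* lower (-1.82). The 10 macrophage and leukocyte markers summed to between 2.00 and 2.81 CPM and between 8.06 and 9.30 CPM. Of these *Cd68* (1.77), *Lyz2* (1.62), *Mrc1* (0.0193 to 0.346 CPM) and *Ptprc* (0 to 0.539 CPM) were called higher, and *Adgre1* and *Tyrobp* were at 0 in both groups. *Mrc1* and *Ptprc* passed the filter on low counts only through the 3D WT samples, so that their calls support nothing. The part of the markers in these results was not tested.

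The genes around these receptors were taken from lists by role, some of which share genes, such as *Nfkbia* and *Tnfaip3*, which stand in 2 each. Of 12 tested target genes known to rise behind the receptors, 10 rose and 1 fell, with a median log2 fold change of 1.71 against 0.00 over all genes. The rises included *Gbp3* and *Gbp2*, interferon-induced GTPases (4.94 and 2.63), and the chemokine gene *Cxcl10* (2.19). Of 10 tested JAK and STAT genes 7 rose and 0 fell, with a median of 0.43, among them *Stat2* (2.33) and *Stat3* (0.86). Of 7 tested ligand genes 1 rose, *Lif*, from 1.62 to 7.57 CPM on average (2.22), and 1 fell, *Hmgb1* (-1.23). Of 8 tested partner chains 4 rose and 0 fell, with a median of 0.32, and these were *Il17rd* (0.76), *Il11ra1* (0.62) and the LPS co-receptor genes *Ly96* (0.52) and *Cd14* (0.39). Of 15 other cytokine receptors 6 rose and 4 fell, with *Il13ra1* at 3.52 and *Tlr3*, a sensor of double-stranded RNA, at 2.70. Of 15 decoys and brakes 6 rose and 2 fell, led by the JAK-STAT feedback genes *Cish* (2.54) and *Socs2* (2.42). Of 18 TNF adaptors 5 rose and 6 fell, led by *Traf1* (1.92), and of 11 TIR and IL-17 adaptors 3 rose and 3 fell, with *Traf3ip2*, which links *Il17ra* to its signal, at 0.82.

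The loss of *Cxcl5* was examined first in 2D, where 3.86% of genes were called higher and 3.17% lower. There 1 receptor rose, *Osmr*, and 1 fell, *Il1r1*. *Osmr* was at 34.4, 32.9 and 28.8 CPM in 2D *Cxcl5*-/- cells, all above the 2D WT samples (log2 fold change 0.70 with an SE of 0.10, edgeR adjusted p = 0.000314). *Il1r1* (ENSMUSG00000026072, chromosome 1, 40225080 to 40317257, plus strand) was at 28.8, 35.0 and 32.7 CPM in 2D WT and at 14.0, 14.0 and 12.8 CPM in 2D *Cxcl5*-/- cells, 2.37-fold lower (log2 fold change -1.24 with an SE of 0.16, edgeR adjusted p = 0.00023). *Lifr* gave -0.18 (95% interval -0.40 to 0.04), and the other 7 receptors lay between -0.25 and 0.09, none of them called. Of 8 tested partner chains 1 rose, *Cd14* (0.59), and 1 fell, *Il1rap* (-1.45), the accessory chain that *Il1r1* needs to signal. Of 12 tested targets 0 rose and 4 fell, with *Cxcl10* at -2.18 and *Ccl2* at -1.55, of 10 JAK and STAT genes 5 rose and 0 fell, led by *Jak3* (0.90), and of 18 TNF adaptors 0 rose and 3 fell, led by *Traf1* (-2.48).

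In 3D, 19.7% of genes were called higher and 25.3% lower in the libraries labelled as 3D *Cxcl5*-/- than in 3D WT. There 4 receptors rose (*Lifr*, *Osmr*, *Tnfrsf1b* and *Tlr4*) and 2 fell (*Ifngr1* and *Il1r1*). *Lifr* was at 56.1, 45.5 and 56.7 CPM in 3D WT, against 376.2, 498.8 and 419.1 CPM in the libraries labelled as 3D *Cxcl5*-/-, an 8.17-fold difference (log2 fold change 3.03 with an SE of 0.12, edgeR adjusted p = 1.09e-09). This placed it 357th by size among the 4218 genes called higher. *Osmr* was at 250.7, 271.8 and 251.4 CPM there against 88.6, 87.7 and 104.5 CPM (1.46, SE 0.10, adjusted p = 6.11e-08 by edgeR). Neither gene's samples overlapped, while *Il6st* gave 309.6, 335.9 and 326.3 CPM against 314.9, 290.0 and 320.7 CPM, which overlapped (0.07, 95% interval -0.08 to 0.22). The share of all genes without overlap is not given here either.

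*Tnfrsf1b* (ENSMUSG00000028599, chromosome 4, 145213463 to 145246870, minus strand) was at 68.3, 66.7 and 66.0 CPM in 3D WT, against 76.9, 106.7 and 106.0 CPM in the libraries labelled as 3D *Cxcl5*-/- (0.53, SE 0.11, adjusted p = 0.00156 by edgeR). *Tnfrsf1a* did not follow it in size, at -0.06 (95% interval -0.25 to 0.13). *Ifngr1* (ENSMUSG00000020009, chromosome 10, 19591949 to 19610229, plus strand) fell from 47.8, 40.4 and 47.1 CPM to 25.0, 19.5 and 25.7 CPM (-0.95, SE 0.11, adjusted p = 1.42e-05 by edgeR), while *Ifngr2* gave -0.12 (-0.31 to 0.07). *Il1r1* went from 43.1, 37.9 and 43.1 CPM to 17.1, 21.2 and 30.0 CPM (-0.86, SE 0.16, adjusted p = 0.000618 by edgeR). *Tlr4* was at 112.1, 81.7 and 81.7 CPM against 68.4, 66.5 and 79.3 CPM (0.36, SE 0.12, adjusted p = 0.0228 by edgeR), and without the highest of these, the sample numbered 1, the difference was 0.17 with an adjusted p of 0.153. The *Tlr4* call was also lost without the 3D WT sample numbered 1 (0.31, adjusted p = 0.101 by edgeR) or 2 (0.29, adjusted p = 0.113 by edgeR).

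**Figure D3:**
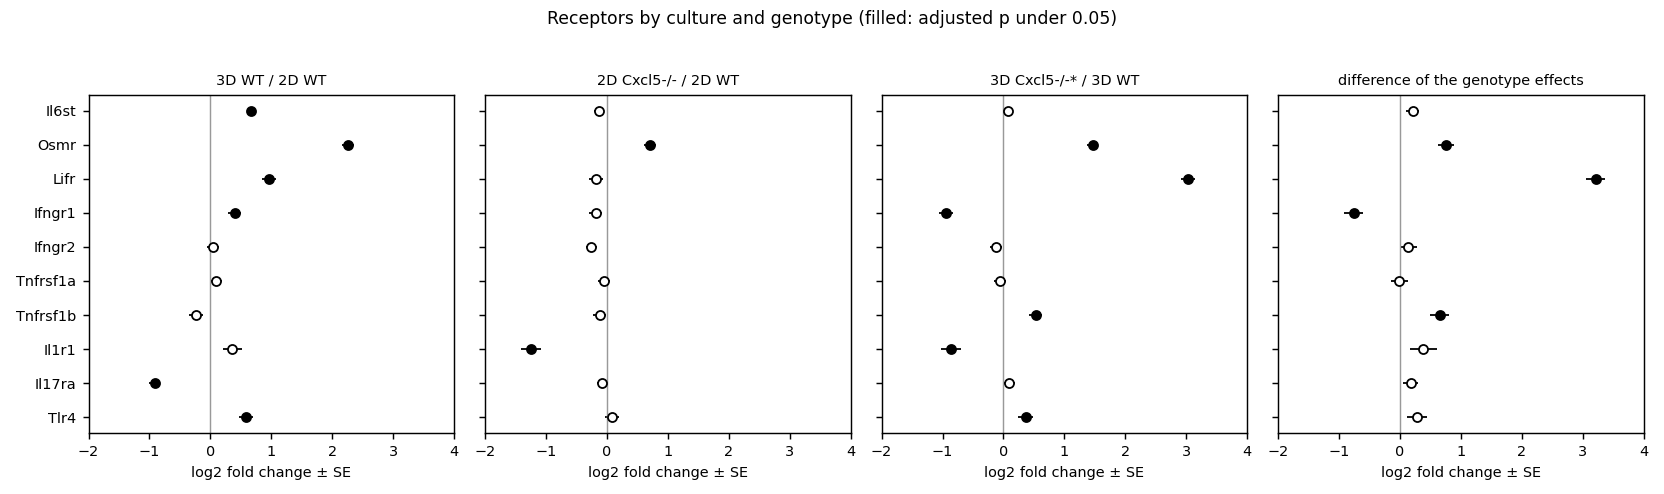
Log2 fold change (points, x axis) with its SE (bars) of each receptor for 3D against 2D in WT cells, for Cxcl5-/- against WT in 2D and in 3D, and for the difference of those 2 genotype effects; filled points have an adjusted p under 0.05 and the asterisk marks the libraries labelled as 3D Cxcl5-/-. Osmr leads in the first panel (2.25) and Lifr in the last 2 (3.03 and 3.21).

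The effect of genotype in 3D was then set against that in 2D, which gave 11.1% of genes higher and 16.1% lower. The effect differed for 4 receptors. *Lifr* differed by 3.21 (SE 0.16, adjusted p = 5.6e-08 by edgeR), *Osmr* by 0.76 (SE 0.13, adjusted p = 0.000994 by edgeR) and *Tnfrsf1b* by 0.65 (SE 0.16, adjusted p = 0.00769 by edgeR), each higher in 3D, and *Ifngr1* by -0.76 (SE 0.16, adjusted p = 0.00309 by edgeR). *Il1r1*, which was lower with both cultures, gave a difference of 0.38 (95% interval -0.06 to 0.82). Scaling by library totals shifted the all-gene median from -0.04 to 0.35 in 3D and from -0.05 to 0.32 in the difference, and the share of called genes that were higher from 43.9% to 75.8% and from 40.9% to 77.1%. With it *Il1r1* was no longer called in 3D (-0.46, adjusted p = 0.0544 by edgeR), *Tnfrsf1a* turned to 0.34 and was called, and *Il6st* (0.47) and *Il17ra* (0.49) were called, while *Lifr*, *Osmr*, *Tnfrsf1b* and *Tlr4* stayed higher and *Ifngr1* lower (-0.56).

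Between the libraries labelled as 3D *Cxcl5*-/- and 2D *Cxcl5*-/- cells, 28.7% of genes were higher and 28.2% lower, and 6 receptors rose and 2 fell. *Lifr* was at 23.2, 23.0 and 25.5 CPM in 2D *Cxcl5*-/- cells, so that 3D was 18.1-fold higher (log2 fold change 4.18, SE 0.13), and *Osmr* was 8.06-fold higher (3.01, SE 0.10). *Il6st* (0.87), *Tlr4* (0.86), *Il1r1* (0.74) and *Tnfrsf1b* (0.42) rose and *Il17ra* (-0.74) and *Ifngr1* (-0.36) fell. Scaling by library totals shifted the all-gene median from 0.11 to 0.26 here, and with it *Ifngr1* was no longer called (-0.22) and *Ifngr2* was called higher (0.34). Without the 3D sample numbered 2 *Ifngr1* was not called (-0.24, adjusted p = 0.0821 by edgeR), and without the one numbered 3 the rise of *Il1r1* was 0.48. This comparison and that of 3D with 2D WT cells used separate samples: *Il17ra* fell and *Osmr*, *Lifr*, *Il6st* and *Tlr4* rose in each, while *Ifngr1* rose in WT cells and fell here.

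Chains of one receptor, and the separate TNF receptors *Tnfrsf1b* and *Tnfrsf1a*, were also compared as ratios of RNA per length. In 2D WT, the ratio of *Lifr* to *Il6st* RNA per length was 0.143 ± 0.0069 and that of *Osmr* to *Il6st* 0.0927 ± 0.00355 (SD, n = 3). In 3D WT these ratios were 0.176 ± 0.0121 and 0.278 ± 0.0204, in 2D *Cxcl5*-/- cells 0.139 ± 0.00682 and 0.166 ± 0.0207, and in the libraries labelled as 3D *Cxcl5*-/- 1.37 ± 0.144 and 0.730 ± 0.0206. *Lifr* was thus the highest of the 10 receptors per length in those libraries, at 40.0 ± 5.78 CPM per kb, above *Il6st* at 29.2 ± 1.20, though with lengths from the longest transcript *Osmr* stood first. The ratio of *Tnfrsf1b* to *Tnfrsf1a* was 1.16 ± 0.0399 in 3D WT and 1.73 ± 0.0846 in the libraries labelled as 3D *Cxcl5*-/-, and that of *Ifngr1* to *Ifngr2* was 1.58 ± 0.0426 and 0.893 ± 0.164. Which chain was higher depended on the length used. With the longest transcript *Tnfrsf1b* lay under *Tnfrsf1a* in 3D WT (17.5 against 18.2 CPM per kb). *Ifngr1* then stayed above *Ifngr2* in the libraries labelled as 3D *Cxcl5*-/- (11.1 against 9.41).

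**Figure D4:**
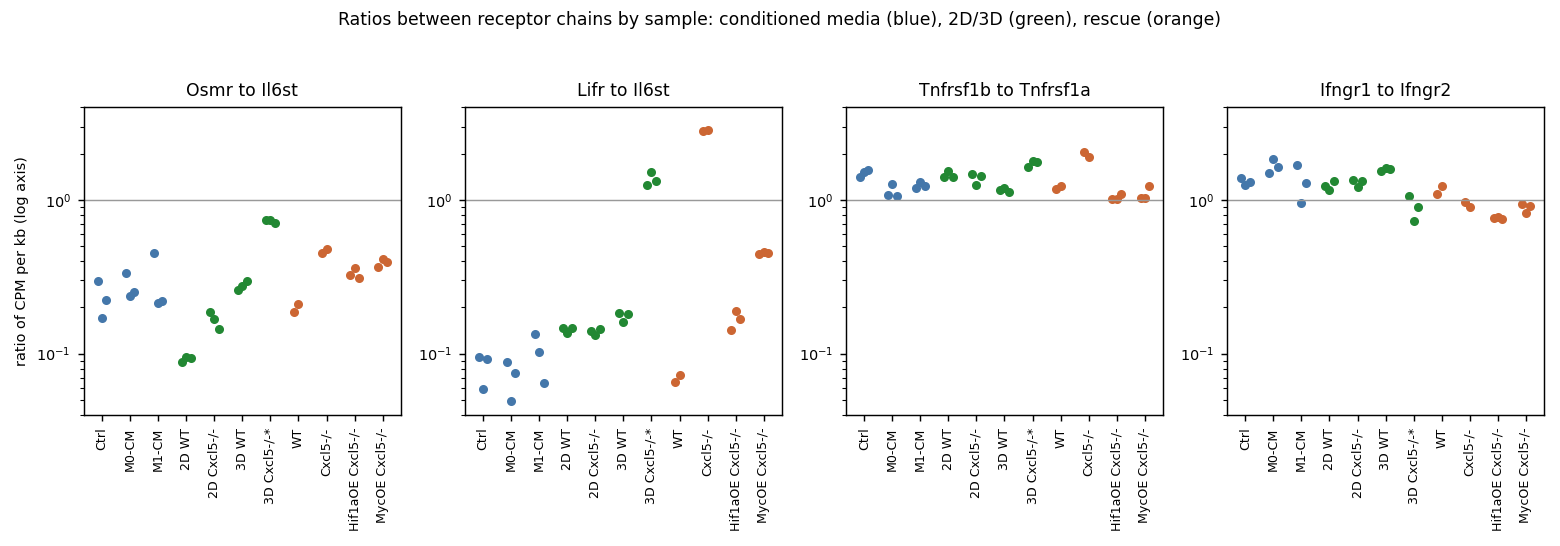
Ratio of the RNA levels of 2 receptor chains in CPM per kb of exon (log axis) in every sample, for the conditioned media (blue), 2D/3D (green) and rescue (orange) tables; the grey line marks equal levels and the asterisk the libraries labelled as 3D Cxcl5-/-. Lifr exceeds Il6st only in the libraries labelled as 3D Cxcl5-/- (mean 1.37) and in the Cxcl5-/- samples of the rescue table (mean 2.83).

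Among the genes around the receptors, the libraries labelled as 3D *Cxcl5*-/- had 3 partner chains higher and 2 lower than 3D WT, of 8 tested. *Il1rap*, the accessory chain of *Il1r1*, fell from 7.91 to 1.12 CPM on average (log2 fold change -2.82). The list also holds the scavenger receptor gene *Lrp1*, which is not a chain of the 10 receptors and was higher (1.26). *Il6ra*, which binds interleukin-6 before gp130, was higher too (0.56). Of 7 tested ligand genes 0 rose and 4 fell: *Lif*, the ligand of *Lifr*, fell from 7.57 to 1.50 CPM (-2.33), *Clcf1*, another cytokine of the gp130 family, fell by 0.67 on the log2 scale, and *Hmgb1*, whose product can act on *Tlr4*, fell by 0.38. The fourth was *Tnf*, which had 7 to 13 counts in a 3D WT sample (0.211 CPM on average), was at 0 in the libraries labelled as 3D *Cxcl5*-/- and in 2D *Cxcl5*-/- cells, and passed the filter on low counts only through WT samples, so that its call supports nothing and the other 3 are left. *Tnf* was chosen for mention after its values were seen. Of 12 tested target genes 0 rose and 6 fell, among them *Nfkbia* (-1.41) and *Cxcl10* (-1.73), with a median of -0.38. Of 10 JAK and STAT genes 4 rose and 2 fell, with *Stat3* at 0.64. Of 15 other receptors 3 rose and 4 fell, with *Csf2rb*, the shared chain for GM-CSF, at 4.41 and *Fas* at 2.15. Of 15 decoys and brakes 3 rose and 7 fell, of 18 TNF adaptors 3 rose and 9 fell, led by *Traf1* (-2.88), and of 11 TIR and IL-17 adaptors 5 rose and 1 fell.

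The rescue table asked the same of *Cxcl5*-/- cells in 3D in a separate set of libraries and then added Hif1α or Myc. Between *Cxcl5*-/- and WT, 17.6% of 28730 genes were higher and 24.3% lower, and the median of all genes was -0.30. Of the receptors 5 rose (*Lifr*, *Osmr*, *Tnfrsf1b*, *Tlr4* and *Il6st*) and 2 fell (*Il1r1* and *Ifngr1*), with 2 samples in each group. *Lifr* was at 16.4 and 17.8 CPM in WT and at 869.7 and 883.8 CPM in *Cxcl5*-/- cells, 51.3-fold higher (log2 fold change 5.68 with an SE of 0.13, edgeR adjusted p = 1.89e-09), the 51st largest of 5053 rises. *Osmr* was at 52.5 and 57.5 CPM and at 156.5 and 167.4 CPM (1.56, SE 0.11, adjusted p = 1.07e-06 by edgeR). *Tnfrsf1b* was at 62.4 and 63.8 CPM and at 114.8 and 118.4 CPM (0.89, SE 0.09, adjusted p = 2.16e-05 by edgeR).

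The 4 other calls in this comparison were small. *Il1r1* fell by 0.65 on the log2 scale (SE 0.14), *Ifngr1* fell by 0.42 (SE 0.10), and *Tlr4* and *Il6st* rose by 0.34 and 0.33. With 1 of the 4 samples left out between 4 and 5 receptors were called: *Il6st* (0.32 to 0.33) and *Tlr4* (0.30 to 0.37) lost their call without any one of them, and *Ifngr1* lost it without the sample numbered 2 of either group (-0.38 in each case), which gave the 4. *Tlr4* and *Il6st* were also not called by DESeq2 or with its size factors (0.24 and 0.23), with library totals (0.38 and 0.37), without the filter on low counts (0.35 and 0.34), or when 10 counts were asked of every sample (0.25 and 0.24). *Tnfrsf1a*, *Il17ra* and *Ifngr2* gave 0.17, 0.08 and -0.10 and were not called.

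The summed fibroblast markers differed with the genotype in both tables and with the vectors in the rescue table. The sum was 293.5 and 311.6 CPM in the WT and 1487.1 and 1522.1 CPM in the *Cxcl5*-/- samples of the rescue table, and it was between 636.2 and 690.0 CPM in 3D WT and between 1212.7 and 1315.3 CPM in the libraries labelled as 3D *Cxcl5*-/-. In 2D it was between 645.6 and 677.1 CPM in *Cxcl5*-/- cells and between 794.6 and 844.1 CPM in WT. The members did not all go one way. In the libraries labelled as 3D *Cxcl5*-/- *Pdgfra* (log2 fold change 3.33), *Pdgfrb* (1.22) and *Col3a1* (0.73) were called higher and *Dcn* (-3.74), *Lum* (-1.27) and *Col1a2* (-1.06) lower than in 3D WT, whereas *Dcn* (3.76) and *Lum* (5.05) were among the 6 called higher, and 0 lower, in *Cxcl5*-/- cells of the rescue table. The sum of the epithelial markers was between 852.5 and 1096.9 CPM in 3D WT, between 217.2 and 235.9 CPM in the libraries labelled as 3D *Cxcl5*-/-, 856.2 and 903.0 CPM in the WT and 286.8 and 302.0 CPM in the *Cxcl5*-/- samples of the rescue table. *Krt8*, *Krt18* and *Krt19* were called lower in both, and *Krt7* higher in the libraries labelled as 3D *Cxcl5*-/- (2.11). In *Hif1a*OE *Cxcl5*-/- cells the fibroblast sum was between 628.7 and 735.1 CPM, with 0 of 7 called higher and 6 lower, and the epithelial sum between 704.7 and 837.1 CPM. In *Myc*OE *Cxcl5*-/- cells they were between 601.1 and 688.7 CPM, with 0 called higher and 4 lower, and between 267.3 and 311.6 CPM.

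Markers of macrophages and leukocytes summed to 26.1 CPM or less in every sample, and *Tyrobp* was above 0 in 1 sample, of the rescue WT. In 3D WT they summed to between 8.06 and 9.30 CPM and in the libraries labelled as 3D *Cxcl5*-/- to between 14.8 and 24.1 CPM, where *Lyz2* was called higher (2.11). In the rescue table the sum was 15.5 and 16.3 CPM in WT and 15.02 and 15.86 CPM in *Cxcl5*-/- cells. Of 7 tested there 3 were called lower in *Cxcl5*-/- cells, *Ptprc* (1.73 to 0.113 CPM on average), *Mrc1* (1.24 to 0.123 CPM) and *Adgre1* (0.590 to 0 CPM), and 1 higher, *Cd68* (0.63). Of 4 endothelial markers 3 were called lower, *Cdh5* (1.02 to 0 CPM), *Pecam1* (0.733 to 0.0203 CPM) and *Kdr* (0.657 to 0 CPM). *Adgre1*, *Cdh5* and *Kdr* had no counts in the *Cxcl5*-/- samples. *Adgre1* and *Kdr* passed the filter on low counts only through the WT samples, so that their calls support nothing. The part of the markers in the receptor results was not tested.

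Adding Hif1α to *Cxcl5*-/- cells gave 20.5% of genes higher and 15% lower, and 1 receptor rose and 5 fell. *Lifr* went from 869.7 and 883.8 CPM to 43.4, 45.2 and 53.1 CPM in *Hif1a*OE *Cxcl5*-/- cells, 18.6-fold lower (log2 fold change -4.21 with an SE of 0.10, edgeR adjusted p = 2.46e-09), and *Osmr* from 156.5 and 167.4 CPM to 110.3, 97.6 and 109.7 CPM (-0.61, SE 0.09, adjusted p = 0.000321 by edgeR). *Tnfrsf1b* fell to 51.3, 54.4 and 57.6 CPM (-1.10, SE 0.08, adjusted p = 2.39e-06 by edgeR). *Il1r1* was at 12.5 and 10.5 CPM in *Cxcl5*-/- cells and at 5.59, 4.86 and 5.67 CPM with Hif1α (-1.10, SE 0.13, adjusted p = 4.25e-05 by edgeR). No samples of these 4 genes overlapped, but the share of all genes without overlap is not given, so that this describes the samples only. *Tlr4* fell by 0.32 on the log2 scale, a call lost without either *Cxcl5*-/- sample or the *Hif1a*OE sample numbered 2 (-0.34 to -0.26), and *Ifngr2* rose by 0.46.

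With Myc 21.6% of genes were higher and 18% lower, and 3 receptors rose and 5 fell. *Lifr* was at 107.2, 113.4 and 114.7 CPM in *Myc*OE *Cxcl5*-/- cells, 7.84-fold lower than in *Cxcl5*-/- cells (log2 fold change -2.97 with an SE of 0.10, edgeR adjusted p = 1.16e-08). *Osmr* was at 99.4, 115.4 and 113.0 CPM (-0.57, SE 0.09, adjusted p = 0.000464 by edgeR), *Tnfrsf1b* at 56.7, 64.9 and 60.3 CPM (-0.94, SE 0.08, adjusted p = 4.37e-06 by edgeR) and *Tlr4* at 52.7, 57.4 and 64.6 CPM (-0.48, SE 0.10, adjusted p = 0.00173 by edgeR). *Il1r1* rose, to 19.3, 19.1 and 21.4 CPM (0.79, SE 0.13, adjusted p = 0.000387 by edgeR). *Ifngr2* rose by 0.40 and *Ifngr1* by 0.34, and *Il6st* fell by 0.32 on the log2 scale. *Il6st* lost its call without any one of the 5 samples (-0.34 to -0.30), and *Ifngr1* without either *Cxcl5*-/- sample (0.30 and 0.39). Both comparisons share the *Cxcl5*-/- samples with each other and with that of *Cxcl5*-/- against WT, so that a high value there enters all 3.

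Scaling by library totals shifted the all-gene median from 0.16 to 0.00 with Hif1α and from 0.11 to -0.11 with Myc, and the share of called genes that were higher from 57.8% to 43.6% and from 54.6% to 36.3%. With it *Ifngr2* was no longer called with Hif1α (0.24) or Myc (0.07), *Ifngr1* turned to -0.000887 with Myc and was not called, *Il17ra* was called lower with Myc (-0.49), and *Tnfrsf1a* was called lower with each (-0.39 and -0.42). *Lifr*, *Osmr*, *Tnfrsf1b* and *Tlr4* stayed lower with each.

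Between *Myc*OE and *Hif1a*OE *Cxcl5*-/- cells, a comparison that leaves out the *Cxcl5*-/- samples, 9.54% of genes were higher and 9.73% lower with Myc, and 2 receptors were higher and 1 lower. *Il1r1* differed by 1.89 (SE 0.12, adjusted p = 9.83e-07 by edgeR) and *Lifr* by 1.24 (SE 0.09, adjusted p = 2.62e-06 by edgeR), each 3 Myc samples above the 3 Hif1α samples. *Il17ra* gave -0.33 (SE 0.10, adjusted p = 0.0373 by edgeR), and was not called without the *Hif1a*OE sample numbered 1 or 3 or the *Myc*OE sample numbered 1 or 2 (-0.33 to -0.27). *Il6st* (-0.20) was called without the *Hif1a*OE sample numbered 2 (-0.31). *Osmr* gave 0.05 (95% interval -0.12 to 0.21) and *Tnfrsf1b* 0.16 (0.01 to 0.30), neither of them called. By library totals the all-gene median went from -0.02 to -0.13 and the share of called genes that were higher from 49.5% to 36.1%.

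**Figure D5:**
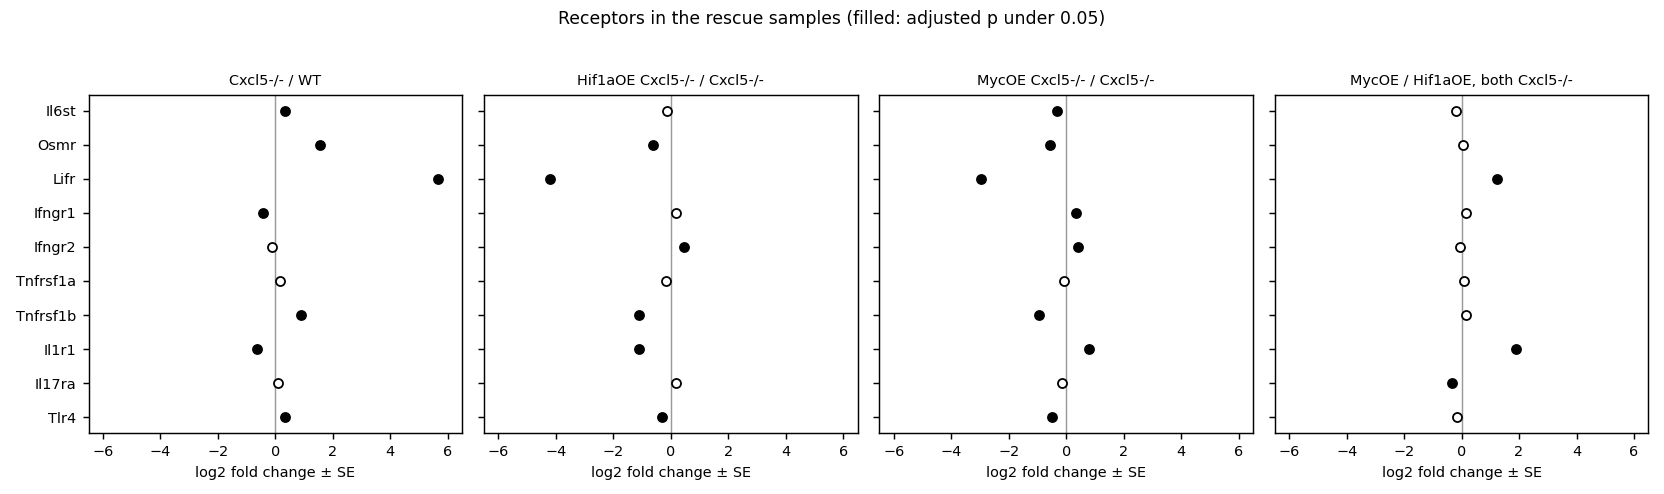
Log2 fold change (points, x axis) with its SE (bars, mostly within the points) of each receptor for Cxcl5-/- against WT, for Hif1aOE Cxcl5-/- and MycOE Cxcl5-/- against Cxcl5-/-, and for MycOE against Hif1aOE; filled points have an adjusted p under 0.05. Lifr has the largest value in the first 3 panels (5.68, -4.21 and -2.97) and Il1r1 in the last (1.89).

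In the rescue table the *Lifr* to *Il6st* ratio per length was 0.0693 ± 0.00498 in WT (SD, n = 2), 2.83 ± 0.0124 in *Cxcl5*-/- (n = 2), 0.167 ± 0.0229 in *Hif1a*OE *Cxcl5*-/- (n = 3) and 0.450 ± 0.00808 in *Myc*OE *Cxcl5*-/- cells (n = 3). *Lifr* led the 10 receptors in *Cxcl5*-/- cells with 81.4 ± 0.93 CPM per kb, at percentile 98.8 of the genes tested, and was last in WT with 1.59 ± 0.10. The *Tnfrsf1b* to *Tnfrsf1a* ratio was 1.99 ± 0.11 in *Cxcl5*-/- cells and between 1.04 and 1.21 on average in the other 3 groups. With the longest transcript as length *Tnfrsf1b* lay under *Tnfrsf1a* with Hif1α (14.3 against 16.4 CPM per kb) and Myc (15.9 against 17.5), but not in WT (16.5 against 16.4).

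Around the receptors, *Lif* was at 11.6 CPM in WT, 2.24 in *Cxcl5*-/-, 3.47 in *Hif1a*OE *Cxcl5*-/- and 1.98 in *Myc*OE *Cxcl5*-/- cells on average, with log2 fold changes of -2.37 for *Cxcl5*-/- against WT and 0.63 for Hif1α (called) and of -0.18 for Myc (not called). *Il1rap* fell in *Cxcl5*-/- against WT (-1.54) and rose with Hif1α (0.98), where *Il1r1* fell. *Lrp1* rose in *Cxcl5*-/- against WT (2.10) and fell with Hif1α (-1.81) and Myc (-2.28). *Cd14* rose with Myc (1.27). Of 10 tested partner chains, with *Lrp1* counted among them, 3 rose and 3 fell in *Cxcl5*-/- cells. With Hif1α 5 rose and 2 fell, and with Myc 2 rose and 3 fell. The 10 include *Cntfr* and *Il17re*, at 0.296 and 0.831 CPM in WT on average. Both passed the filter on low counts only through the WT samples, so that a call of either supports nothing.

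Of 15 tested targets 1 rose and 9 fell in *Cxcl5*-/- against WT, 9 rose and 0 fell with Hif1α, and 7 rose and 3 fell with Myc, with medians of -1.15, 0.58 and 0.77 against -0.30, 0.16 and 0.11 over all genes. The chemokine gene *Ccl2* fell by 1.95 on the log2 scale in *Cxcl5*-/- cells and rose by 3.39 with Hif1α and 1.15 with Myc. *Nfkbia*, the inhibitor and target of NF-κB, fell by 1.48 on the log2 scale in *Cxcl5*-/- cells and rose by 0.92 and 1.21. *Gbp2* fell with Myc (-1.70). Of 11 tested JAK and STAT genes 5 rose and 1 fell, 3 rose and 3 fell, and 1 rose and 5 fell in the same order, and *Stat3*, which acts behind gp130, rose in *Cxcl5*-/- cells (0.86) and fell with Myc (-0.67). The 11 include *Stat4*, at 0.241 CPM in WT on average. It passed the filter on low counts only through the WT samples, so that a call of it supports nothing. Of 8 tested ligand genes 0, 3 and 1 rose and 5, 0 and 1 fell, where 1 of the 5 and 1 of the 3 was *Tnf*. *Tnf* was at 0 in *Cxcl5*-/- and *Myc*OE *Cxcl5*-/- cells and under 1 CPM elsewhere. It passed the filter on low counts only through WT and *Hif1a*OE samples, so that its calls support nothing. *Il11*, whose product also signals through gp130, fell in *Cxcl5*-/- cells (-2.15).

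Of 18 TNF adaptors 3, 4 and 4 rose and 3, 3 and 5 fell. *Traf1*, which binds the tail of the *Tnfrsf1b* product, fell in *Cxcl5*-/- cells (-3.52) and rose with Hif1α (2.06) and Myc (2.37), the reverse of *Tnfrsf1b* in each. Of 12 TIR and IL-17 adaptors, which act behind *Il1r1*, *Tlr4* and *Il17ra*, 8, 0 and 0 rose and 1, 8 and 7 fell, with medians of 0.49, -0.37 and -0.38. The 12 include *Ticam2*, at 0.438 CPM in WT on average and 0 in *Cxcl5*-/- cells. It passed the filter on low counts only through the WT samples, so that a call of it supports nothing. *Myd88*, the adaptor of *Il1r1* and *Tlr4*, rose in *Cxcl5*-/- cells (0.63), the kinase gene *Irak4* fell with Hif1α (-0.58), and *Ticam1*, the second adaptor of *Tlr4*, fell with Myc (-0.74). Of 16 decoys and brakes 3, 6 and 6 rose and 8, 3 and 3 fell, and of 17 other receptors 9, 4 and 4 rose and 6, 8 and 7 fell, with the death receptor gene *Fas* at 2.22 in *Cxcl5*-/- cells and -1.97 with Hif1α.

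*Osmr* and *Lifr* were also set beside their neighbours on chromosome 15, the genes within 1 Mb with a mean of at least 1 CPM in both the 2D/3D and the rescue table. Between the libraries labelled as 3D *Cxcl5*-/- and 3D WT the neighbours lay between -0.62 (*Rictor*, next to *Osmr*) and 0.86 (*Gdnf*) on the log2 scale, against 1.46 for *Osmr* and 3.03 for *Lifr*. Between *Cxcl5*-/- and WT of the rescue table they lay between -1.40 (*Fyb*) and 0.73 (*Cplane1*), against 1.56 and 5.68. The genes whose pattern over the 31 samples was most like that of *Lifr*, by the root mean square (RMS) difference of log2 CPM centred in each table, were *Gm20758* (0.57) and *Sesn3* (0.60) of 13042 genes, while *Lifr* itself had an RMS of 1.54. For *Osmr* they were *Kdm5b* (0.37) and *Ypel2* (0.39), against its own RMS of 0.99. For *Tnfrsf1a* and *Ifngr2*, whose own RMS was 0.20 and 0.16, the nearest genes, *Reps1* and *Angel2*, were 0.13 and 0.14 away, so that little pattern was there to match. These points share their libraries, and the likeness is a description over samples that were also used for the comparisons above.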

How the data were processed

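RNA was sequenced from 31 samples in 11 groups, as stranded total RNA libraries. The cell line is Panc02 in the study and in the labels of the conditioned media and 2D/3D samples. The labels of the 10 rescue samples give running numbers in its place, a different one for each sample, and these samples were grouped by genotype and treated as Panc02. Per the labels and methods, the authors aligned reads to mm10 (GRCm38) with HISAT2 and deposited StringTie read counts per gene, not normalised, in 3 tables. Versions and the annotation release are not given in the sources used here. Groups were taken from the sample labels, and the tables were tested separately.

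The counts were filtered with filterByExpr by group, scaled by TMM and tested with edgeR 4.0.16 (R 4.3.3, glmQLFit and glmQLFTest) in 12 comparisons, with all groups of a table in each fit and Benjamini-Hochberg adjustment over all genes tested. A call is an adjusted p under 0.05, an SE is the absolute log2 fold change divided by the square root of F, and a 95% interval is 1.96 SE to each side. CPM used TMM-scaled library sizes. Levels per kb used the union of GENCODE M21 exons. Intervals and depth cover the spread between these samples and counting error only. The steps were tested on simulated counts, for the first comparison of each table. Of genes changed 2-fold, edgeR recovered 35% for M1-CM against Ctrl, 85% for 3D against 2D WT and 67% in the rescue table. Of genes changed 4-fold it recovered 81%, 99% and 98%. False calls were 1.69%, 3.66% and 1.2% of edgeR's calls, and 18.8%, 12.6% and 5.11% of DESeq2's.

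The alternatives were DESeq2 1.42.0, its size factors or library totals in edgeR, other filters on low counts, a fit of the compared groups alone, a block for the replicate number, each sample left out, an absolute log2 fold change above 1, and the longest transcript as length. The members and lists were chosen with earlier results of these data known. All 10 receptors are named. Of each list and table up to 4 called genes with the largest absolute log2 fold change and at least 1 CPM in a group compared could be named, with *Cxcl5*, *Hif1a* and *Myc* as checks, the 2 genes of nearest pattern for each receptor, and the neighbours on chromosome 15 that end a range. Further cell type markers, and *Cntfr*, *Il17re*, *Stat4* and *Ticam2*, were named after their values were seen. Any other gene is said to have been chosen after its values were seen. A withheld gene is not reported here.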

Additional observations from a re-analysis of the deposited data

Results flagged for a closer look

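The effect of *Cxcl5* loss differed between 3D and 2D culture for 4 of the 10 receptors, by edgeR's test of the interaction of genotype and culture. On the log2 scale, the effect in 3D minus that in 2D was 3.21 for *Lifr*, 0.76 for *Osmr*, 0.65 for *Tnfrsf1b* and -0.76 for *Ifngr1*. *Cxcl5* RNA was higher in the libraries labelled as 3D *Cxcl5*-/- than in 3D WT, and all 4 values rest on those libraries.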

How the results depend on the processing

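None of the 10 receptors was called with the conditioned media under any alternative run. Where an absolute log2 fold change above 1 was also asked, 1 receptor was called for 3D against 2D WT, 2 for *Cxcl5*-/- against WT in 3D, 1 in 2D, 2 for 3D against 2D *Cxcl5*-/-, 1 for the difference of genotype effects, 2 for *Cxcl5*-/- against WT of the rescue table, 3 with Hif1α, 1 with Myc and 2 between *Myc*OE and *Hif1a*OE cells. Library totals gave 9 receptors in place of 4 for the difference of genotype effects, and turned *Tnfrsf1a* for *Cxcl5*-/- against WT in 3D (0.34) and *Ifngr1* with Myc (-0.000887). The cause of these turns was not tested. The share of all genes called is not given for that limit or for library totals. These counts of receptors are therefore a description and no result about the receptors. Leaving out 1 sample gave 4 to 5 receptors in place of 7 for *Cxcl5*-/- against WT of the rescue table, where 1 group then holds a lone sample that is assumed to vary like the other groups. Across the 120 values, 1 per receptor and comparison, direction and call were kept in 115 with DESeq2 and in 91 with library totals. Over all genes, DESeq2 called 69 higher and 28 lower for M1-CM against Ctrl, 21 and 11 against M0-CM, and 14 and 3 for M0-CM against Ctrl, where edgeR called 3 and 0, 3 and 0, and 0 and 0. The replicate numbers did not pair the samples: samples with the same number in different groups of a table had correlated deviations between -0.236 and 0.359. With the replicate number as a block 0 of the 120 receptor calls changed, with 6 receptors called for 3D against 2D WT as without it, while the genes called for M1-CM against Ctrl and against M0-CM went from 3 to 1 each.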
